A study of Mus musculus with 18 samples.

Results

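The genes described here are 10 genes of antioxidant defence and detoxification, out of 11164 genes in the deposited expression table of cultured mouse macrophages. All 10 named genes, Nfe2l2, Nqo1, Gclc, Gclm, Srxn1, Txnrd1, Prdx1, Sod2, Gsta3 and Maoa, were found by symbol through the gene annotation, and all 10 passed the filter on low values. They were chosen by name with earlier results of these same libraries in view. Maoa was in those results a large rise of BAFF KO cells against WT under LPS, and Gsta3 is listed beside it, so the genotype differences of these genes are given as a description, with no p-value.

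RNA came from bone marrow-derived macrophages, phagocytes that grow from marrow precursors in culture, of C57BL/6J mice. The groups were BAFF KO cells with lipopolysaccharide (LPS, 10 ng/ml for 4 h; 2 libraries, 17 and 18), BAFF KO cells without stimulation (1 library, 16), APRIL KO cells with LPS (2, libraries 20 and 21) and without (1, library 19), and WT cells with LPS (2, libraries 14 and 15) and without (1, library 13). Values of 2 LPS libraries are given in that order. BAFF and APRIL are sister cytokines of the TNF family that act on B cells, and LPS is an endotoxin that macrophages detect through the receptor TLR4. The study set the knockouts against each other in preterm birth driven by inflammation, and every sample, WT included, also carries day 16 of gestation in its labels. The labels give neither the kind of deletion nor the age or number of mice, and do not say whether libraries of a group came from separate mice or cultures, so the p-values below measure only the spread between these libraries.

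The transcription factor NRF2, encoded by Nfe2l2, is held in the cytoplasm and marked for degradation by KEAP1. When oxidants or electrophiles modify KEAP1, NRF2 accumulates, pairs with small MAF proteins and binds antioxidant response elements in the promoters of many enzymes that make glutathione, reduce thioredoxin and conjugate or reduce toxic compounds. Much of this control acts on the NRF2 protein, which RNA sequencing does not measure. Activated macrophages make reactive oxygen species to kill microbes and depend on such enzymes to limit damage to themselves.

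Each library was listed under 2 neighbouring index numbers, as 2 columns, whose mean was taken as the value of the library. Recovered reads came to 5121795 to 6020772 per library. Macrophage markers were present in every library, with 8 of 8 in the table, and Adgre1, which encodes F4/80, was at 423 to 567 RPKM (reads scaled to gene length and to all reads of the library). The gene for APRIL, Tnfsf13, had 0 reads in all 3 APRIL KO libraries, against 119, 134 and 392 reads in WT libraries. No check by target was made for the BAFF KO label, because the gene for BAFF was not analysed here. Genes of neutrophils and of skeletal muscle differed between the genotypes, and their values stand beside the results below.

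The antioxidant response element core was searched as TGACNNNGC and the AP-1 site, a related site bound by FOS and JUN proteins, as TGANTCA, on both strands, in RefSeq promoters of build GRCm38.p6 that run from 250 bases before to 50 bases after a RefSeq start. A promoter entry was matched for 9 of the 10 genes, with 11 entries because Txnrd1 has 3 starts, and not for Gclc. The element core was present in the entries of 6 genes, Gsta3, Gclm, Txnrd1 (the second start), Srxn1, Prdx1 and Nfe2l2, and in 12.4% of all 32851 promoter entries. AP-1 sites were present in Srxn1 and Prdx1, with 2 each, and in 7.81% of all entries. No match to either was found in these windows for Maoa, Nqo1 and Sod2. Bases outside the windows were not searched, so this does not show that these genes lack such sites. The bases from 250 before the RefSeq start are printed for the 4 genes that were higher in BAFF KO cells, because 3 of them hold the core and Maoa does not. Sequences run 5′ to 3′ on the strand of the gene, which is the plus strand for all 4. Capitals mark matches to the 2 motifs. The GENCODE start of Prdx1 lies 55 bases before its RefSeq start, so its sequence ends at the base before the GENCODE gene.
Gsta3, chr1:21240335-21240584: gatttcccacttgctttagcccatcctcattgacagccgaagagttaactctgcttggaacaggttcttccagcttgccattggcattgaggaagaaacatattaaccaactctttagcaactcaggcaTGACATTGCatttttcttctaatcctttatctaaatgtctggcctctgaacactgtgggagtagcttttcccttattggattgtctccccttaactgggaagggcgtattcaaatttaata
Maoa, chrX:16619448-16619697: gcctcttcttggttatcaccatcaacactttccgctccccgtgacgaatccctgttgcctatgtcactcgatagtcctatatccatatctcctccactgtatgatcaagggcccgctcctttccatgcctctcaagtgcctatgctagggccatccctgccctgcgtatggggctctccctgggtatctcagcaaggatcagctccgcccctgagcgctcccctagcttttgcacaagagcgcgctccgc
Gclm, chr3:122245307-122245556: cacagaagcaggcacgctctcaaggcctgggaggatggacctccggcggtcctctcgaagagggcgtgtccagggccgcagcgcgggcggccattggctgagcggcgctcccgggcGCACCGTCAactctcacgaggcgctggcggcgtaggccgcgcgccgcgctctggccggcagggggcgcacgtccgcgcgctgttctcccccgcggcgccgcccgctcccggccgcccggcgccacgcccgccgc
Prdx1, chr4:116685349-116685543: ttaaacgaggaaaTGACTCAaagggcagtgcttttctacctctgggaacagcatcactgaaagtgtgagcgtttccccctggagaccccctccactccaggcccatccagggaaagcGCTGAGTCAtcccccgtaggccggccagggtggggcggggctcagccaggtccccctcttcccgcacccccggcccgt
Counted from the RefSeq start as 0, which need not be the gene start given below, the core lay at -121 to -113 in Gsta3, at -134 to -126 in Gclm and at -133 to -125 in Prdx1, on the opposite strand in Gclm and Prdx1. In Prdx1 it overlaps an AP-1 site at -131 to -125, and a further AP-1 site lies at -237 to -231. A match describes letters in these windows and is not evidence of binding.

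With LPS, RNA for most of these genes took a smaller share of the reads and Sod2 took a larger one. Txnrd1 and Prdx1 passed the threshold in no genotype in the main fit. After median ratio scaling, described below, Txnrd1 was called higher in each genotype and Prdx1 in APRIL KO cells. In BAFF KO cells Txnrd1 was also called in some alternatives without rescaling, such as the replicate block. In limma on log2(RPKM + 1), averaged over the genotypes, Sod2 rose and 7 of the 10 genes fell at a Benjamini-Hochberg adjusted p below 0.05. Over all 9934 genes tested, 18.1% rose and 62.1% fell, so 7 falls among 10 is close to the background. The median log2 difference was -0.63 over the 10 genes and -0.44 over all tested genes. Since RPKM divides by all reads of a library, this shift of all genes depends on the scaling. After median ratio scaling, which put the median of all genes at -0.01, Sod2, Txnrd1 and Prdx1 were higher, Gclc, Gsta3, Gclm and Srxn1 were lower, and Maoa, Nqo1 and Nfe2l2 were not called. Of all 9768 genes tested under that scaling, 3077 were higher and 2943 lower.

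**Figure D1:**
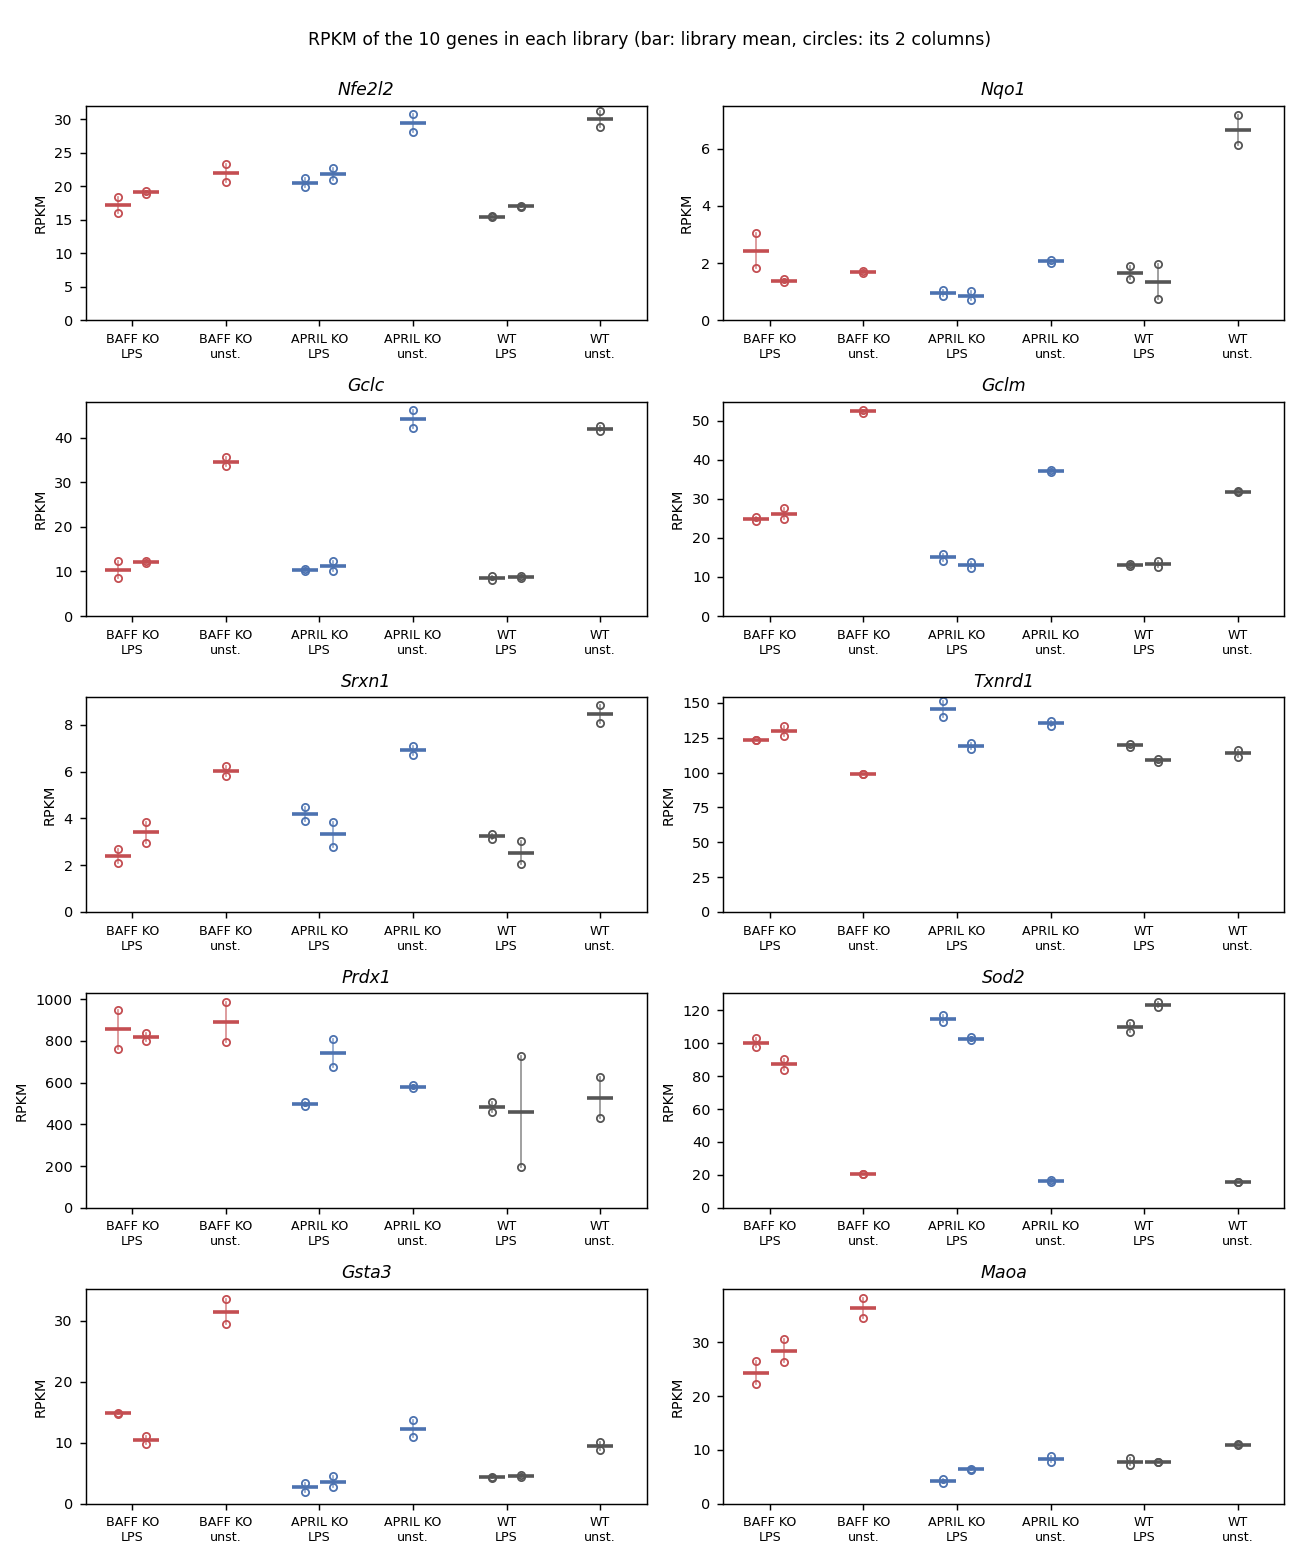
RPKM of each of the 10 genes (vertical axes, from 0) in the 6 groups (horizontal axes). Circles are the 2 columns of a library and bars their mean. Sod2 stands between 87.2 and 123.5 RPKM in the LPS libraries and between 15.58 and 20.7 RPKM without LPS. Maoa is higher in all 3 BAFF KO libraries than in any other library. Gsta3 is higher in BAFF KO than in the other genotypes within each condition, but overlaps between conditions.

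Nfe2l2 itself (ENSMUSG00000015839, mm10 chromosome 2, 75675513 to 75704641, minus strand) fell with LPS. It was at 17.14 and 19.09 RPKM in BAFF KO cells with LPS, against 21.94 RPKM in unstimulated BAFF KO cells. APRIL KO cells held 20.52 and 21.8 RPKM with LPS, against 29.47 RPKM without. WT cells held 15.45 and 16.99 RPKM with LPS, against 30.02 RPKM without. Each LPS library lay below every unstimulated library, although the highest of them, an APRIL KO library, was close to unstimulated BAFF KO cells. The averaged log2 difference was -0.52 (SE 0.08; limma, adjusted p = 0.00034), and after median ratio scaling it was -0.03 (adjusted p = 0.76). The snRNA gene Gm24996 lies inside Nfe2l2 on the same strand.

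Nqo1 (ENSMUSG00000003849, chromosome 8, 107388225 to 107403206, minus strand), the quinone reductase often used as a readout of NRF2, was the least abundant of the 10 genes. It rested on 6 to 53 reads per library. BAFF KO cells held 2.424 and 1.379 RPKM with LPS, against 1.691 RPKM without. APRIL KO cells held 0.9498 and 0.8559 RPKM with LPS, against 2.057 RPKM without. WT cells held 1.661 and 1.352 RPKM with LPS, against 6.649 RPKM without, so the unstimulated WT library stood above all the others. The log2 difference with LPS was -1.61 in WT (SE 0.25; limma, adjusted p = 0.0012) and -0.68 in APRIL KO cells (adjusted p = 0.041, called in 5 of 15 alternatives). It was 0.08 in BAFF KO cells (adjusted p = 0.78). The difference of the BAFF KO response from that of WT was 1.7 (SE 0.35, adjusted p = 0.076) and did not pass the threshold. Unstimulated WT cells, on which that difference rests, were 1 library.

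Glutathione is made in a first, rate-limiting step by glutamate-cysteine ligase, an enzyme of a catalytic subunit, encoded by Gclc, and a modifier subunit, encoded by Gclm. RNA for both fell with LPS in all 3 genotypes and in each of 15 alternatives, and Gclc fell further in the averaged comparison. Gclc (ENSMUSG00000032350, chromosome 9, 77754535 to 77794485, plus strand) was at 10.43 and 12.13 RPKM in BAFF KO cells with LPS, against 34.63 RPKM without. In APRIL KO cells it was at 10.28 and 11.15 RPKM with LPS, against 44.23 RPKM without. In WT cells it was at 8.499 and 8.709 RPKM with LPS, against 41.99 RPKM without. The groups with and without LPS were far apart, and the averaged fall was 3.69-fold on the log2(RPKM + 1) scale (log2 -1.88, SE 0.08; limma, adjusted p = 4.9e-07). The log2 difference was -1.54 in BAFF KO, -1.95 in APRIL KO and -2.16 in WT cells, and the difference of the BAFF KO response from that of WT, 0.62 (SE 0.2), was not called (adjusted p = 0.14).

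Gclm (ENSMUSG00000028124, chromosome 3, 122245557 to 122270732, plus strand) was at 24.84 and 26.21 RPKM in BAFF KO cells with LPS, against 52.32 RPKM without. In APRIL KO cells it was at 15.06 and 13.1 RPKM with LPS, against 37.07 RPKM without. In WT cells it was at 13.07 and 13.29 RPKM with LPS, against 31.84 RPKM without. Its averaged log2 difference was -1.19 (SE 0.07; limma, adjusted p = 4e-06), a 2.28-fold fall. BAFF KO cells held more Gclm RNA than the other genotypes in either condition, which was not so for Gclc. The ratio of Gclm to Gclc RPKM was therefore 2.38 and 2.16 in BAFF KO cells with LPS, against 1.46 and 1.17 in APRIL KO cells and 1.54 and 1.53 in WT cells with LPS. Without stimulation the ratio was 1.51 in BAFF KO, 0.838 in APRIL KO and 0.758 in WT cells, so it was higher with LPS in every genotype. The pseudogene Gm6061 lies within Gclm on the same strand and Gm17494 overlaps it on the opposite one, and whether the libraries keep strand is unclear.

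Sulfiredoxin, encoded by Srxn1 (ENSMUSG00000032802, chromosome 2, 152105516 to 152111376, plus strand), restores peroxiredoxins that have been overoxidised. Its RNA was at 2.383 and 3.398 RPKM in BAFF KO cells with LPS, against 6.037 RPKM without. Cells without APRIL held 4.193 and 3.314 RPKM with LPS, against 6.909 RPKM without. WT cells held 3.232 and 2.528 RPKM with LPS, against 8.454 RPKM without. The groups with and without LPS did not overlap, and the averaged log2 difference was -0.97 (SE 0.14; limma, adjusted p = 0.00033). The call in BAFF KO cells was lost without library 17 and that in APRIL KO cells without library 21 and with the replicate block. Median ratio scaling ended both (limma, adjusted p = 0.13 and 0.38), as did quantile normalization and the lower-index columns alone.

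Txnrd1 (ENSMUSG00000020250, chromosome 10, 82833951 to 82897712, plus strand) encodes the cytosolic thioredoxin reductase. It passed the threshold with LPS in none of the 3 genotypes in the main fit. It was at 123.3 and 130.1 RPKM in BAFF KO cells with LPS, against 98.91 RPKM without. With APRIL knocked out it was at 145.4 and 118.9 RPKM with LPS, against 135.3 RPKM without. WT cells held 119.6 and 108.7 RPKM with LPS, against 113.7 RPKM without. LPS and unstimulated libraries overlapped in APRIL KO and WT cells and were apart in BAFF KO cells, where the log2 difference was 0.35 (limma, adjusted p = 0.053, called higher in 5 of 15 alternatives). The averaged log2 difference was 0.11 (SE 0.08; limma, adjusted p = 0.24). Relative to the median of all genes Txnrd1 was higher, with a log2 difference of 0.62 after median ratio scaling (adjusted p = 0.00035), and of 0.81 in BAFF KO, 0.5 in APRIL KO and 0.55 in WT cells, each called higher. The protein-coding gene Eid3 lies inside Txnrd1 on the same strand, and Gm38560 and Gm47073 overlap it on the other.

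Prdx1 (ENSMUSG00000028691, chromosome 4, 116685544 to 116700822, plus strand), a peroxiredoxin that reduces hydrogen peroxide with electrons from thioredoxin, was the most abundant of the 10 genes. It was at 855.3 and 818.4 RPKM in BAFF KO cells with LPS, against 891.3 RPKM without. APRIL KO cells held 499.1 and 743.6 RPKM with LPS, against 581.3 RPKM without. WT cells held 483.4 and 461.6 RPKM with LPS, against 527.9 RPKM without. The averaged LPS difference was -0.06 on the log2 scale (SE 0.12; limma, adjusted p = 0.65) and turned to 0.46 after median ratio scaling (adjusted p = 0.0096). The 2 columns of a library did not give the same level of Prdx1. In WT library 15 the higher-index column gave 194.6 RPKM (2051 reads) and the lower-index column 728.5 RPKM (3647 reads), a 3.74-fold gap. Of 145 genes with at least 1000 reads in every column, 4 differed at least 1.5-fold between the columns of some library, and only Prdx1 by as much as 3.74-fold. The median of the largest gap over these 145 genes was 1.08.

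**Figure D2:**
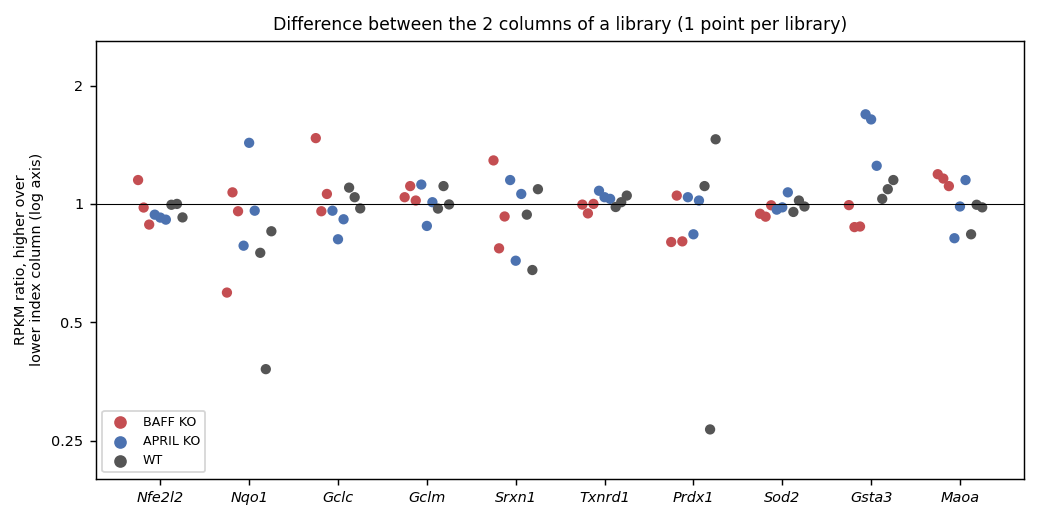
Ratio of the RPKM in the higher-index column to that in the lower-index column of each library (vertical axis, log scale), for the 10 genes (horizontal axis), with 1 point per library coloured by genotype. Txnrd1 and Sod2 stay within 1.08-fold of equality, Nqo1 with its 6 to 53 reads scatters, and Prdx1 departs most in a WT library despite at least 2051 reads in each of its columns.

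Sod2 (ENSMUSG00000006818, chromosome 17, 13006846 to 13040063, plus strand), the mitochondrial manganese superoxide dismutase, is a well known NF-kB target. It was the single member called higher with LPS in the main fit, while median ratio scaling called Txnrd1 and Prdx1 higher as well. It was at 100.4 and 87.2 RPKM in BAFF KO cells with LPS, against 20.7 RPKM without. With APRIL knocked out it was at 115 and 102.8 RPKM with LPS, against 16.47 RPKM without. WT cells held 109.7 and 123.5 RPKM with LPS, against 15.58 RPKM without. The groups with and without LPS lay far apart in each genotype, and the averaged rise was 5.79-fold (log2 2.53, SE 0.08; limma, adjusted p = 7.4e-08). It was called in each of 15 alternatives. The rise was 4.36-fold in BAFF KO, 6.28-fold in APRIL KO and 7.08-fold in WT cells. The log2 response of BAFF KO cells was lower than that of WT by a difference of -0.7 (SE 0.19), which did not pass the threshold over all genes (limma, adjusted p = 0.11).

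Gsta3 and Maoa are further detoxification enzymes of the set, beside Nqo1. Gsta3 (ENSMUSG00000025934, chromosome 1, 21240589 to 21265661, plus strand) encodes an alpha-class glutathione S-transferase, which joins glutathione to reactive compounds. It was at 14.82 and 10.46 RPKM in BAFF KO cells with LPS, against 31.53 RPKM without. APRIL KO cells held 2.672 and 3.633 RPKM with LPS, against 12.33 RPKM without, and WT cells held 4.315 and 4.587 RPKM with LPS, against 9.501 RPKM without. LPS libraries were lower within each genotype, and BAFF KO cells with LPS overlapped unstimulated cells of the other genotypes. The averaged LPS difference was -1.3 on the log2 scale (SE 0.13; limma, adjusted p = 5.9e-05). An antisense gene, Gm28836, overlaps Gsta3.

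Maoa (ENSMUSG00000025037, chromosome X, 16619698 to 16687818, plus strand) encodes monoamine oxidase A, a mitochondrial enzyme that breaks down amines and releases hydrogen peroxide in doing so. It was at 24.35 and 28.44 RPKM in BAFF KO cells with LPS, against 36.3 RPKM without. APRIL KO cells held 4.211 and 6.372 RPKM with LPS, against 8.255 RPKM without, and WT cells held 7.793 and 7.719 RPKM with LPS, against 10.99 RPKM without. All 3 BAFF KO libraries stood above all 6 others. The averaged LPS difference was -0.49 on the log2 scale (SE 0.12; limma, adjusted p = 0.0066), near the median of all genes, and was -0.02 after median ratio scaling (adjusted p = 0.88).

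Within single genotypes, 5 of the 10 genes were called with LPS in BAFF KO cells (59.8% of all tested genes), 8 in APRIL KO cells (62.1%) and 7 in WT cells (60.3%). Sod2 was higher and Gclc, Gclm, Gsta3 and Srxn1 were lower in all 3 genotypes, and Prdx1 and Txnrd1 were called in none in the main fit. The Srxn1 calls in both knockouts were lost in several alternatives, as given above. Nfe2l2 fell in APRIL KO cells (log2 -0.46; limma, adjusted p = 0.017) and WT cells (-0.85, adjusted p = 0.0012), and was at -0.26 in BAFF KO cells (adjusted p = 0.11). The Gsta3 and Nfe2l2 calls in WT and the Nfe2l2 call in APRIL KO cells ended after median ratio scaling (adjusted p = 0.15, 0.08 and 0.7). The Nfe2l2 call in APRIL KO cells was also lost without library 20 and with the lower-index columns alone. Maoa stood near the threshold in each genotype, at -0.45 in BAFF KO cells (limma, adjusted p = 0.1), -0.58 in APRIL KO cells (adjusted p = 0.046) and -0.45 in WT cells (adjusted p = 0.1). It was called in 4 of 15 alternatives in BAFF KO cells, 6 in APRIL KO cells and 4 in WT cells.

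**Figure D3:**
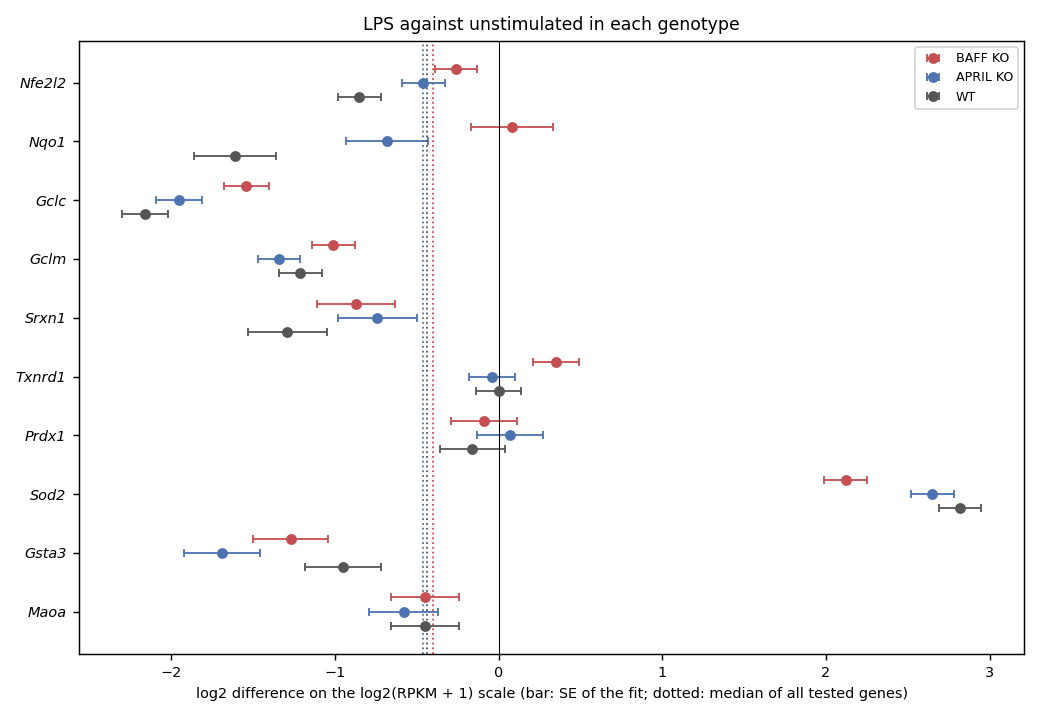
Log2 difference with LPS on the log2(RPKM + 1) scale (horizontal axis) for the 10 genes (rows) in each genotype, with bars for the SE of the fit and dotted lines at the median of all tested genes. Sod2 lies at 2.12 to 2.82, Gclc at -2.16 to -1.54, and Txnrd1 and Prdx1 lie right of the dotted lines.

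Whether the response to LPS differs in the knockouts was tested on the difference itself. There 0 of the 10 genes were called for BAFF KO against WT, where 0.443% of all genes were called. For APRIL KO against WT 0 of the 10 were called, and 0.0% of all genes. In limma 337 of the 9934 genes had an unadjusted p below 0.05 for APRIL KO and 2141 for BAFF KO, and each of these differences rests on 1 unstimulated library per genotype. Of the 8 genes given with a p-value, Nqo1, Gclc, Sod2 and Nfe2l2 were below an unadjusted 0.05 for BAFF KO and Nqo1 for APRIL KO. Nfe2l2 had a difference of 0.59 (SE 0.18, adjusted p = 0.14) for BAFF KO, and the other genes not given above lay between -0.33 and 0.42 for BAFF KO and between -0.75 and 0.93 for APRIL KO.

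Under LPS, 4 of the 10 genes were higher in BAFF KO than in WT cells and 0 were lower, where 3.99% of all genes were called higher and 4.35% lower. Because the set was chosen with this contrast known, nothing is read from that share. Which earlier values led to Gclm and Prdx1 is not recorded. Their p-values and calls below are therefore a description and not independent support. Gsta3 was 2.47-fold higher (log2 1.31, SE 0.19) and Maoa 3.12-fold higher (log2 1.64, SE 0.18). Gclm was 1.87-fold higher, at 24.84 and 26.21 RPKM in BAFF KO, against 13.07 and 13.29 RPKM in WT cells (log2 0.9, SE 0.1; limma, adjusted p = 0.0032). It was called in each of 15 alternatives. Prdx1 was 1.77-fold higher (log2 0.82, SE 0.17; limma, adjusted p = 0.026), but WT library 15 holds the column that departs, and the call was lost with either index column alone, with no filter, and without library 14, 15, 17 or 18 (adjusted p up to 0.33). The Gsta3 difference also missed the threshold without library 14 or library 17, with log2 values of 1.07 to 1.54 over the 15 alternatives. Txnrd1, Nqo1, Nfe2l2 and Srxn1 differed by 0.15, 0.19, 0.15 and 0.00 on the log2 scale, Gclc by 0.35 (adjusted p = 0.1) and Sod2 by -0.31 (adjusted p = 0.13), none of which was called.

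Against APRIL KO under LPS, 3 of the 10 genes were higher in BAFF KO cells and 0 were lower, where 2.48% of all genes were called higher and 3.06% lower. The BAFF KO libraries are those of the comparison with WT, and 2 of the 3 genes are Gsta3 and Maoa, so nothing is read from this share either. The p-value of Gclm below carries the limit given for the comparison with WT. Gsta3 was 3.26-fold higher (log2 1.71, SE 0.19), Maoa 4.41-fold higher (log2 2.14, SE 0.18) and Gclm 1.76-fold higher (log2 0.82, SE 0.1; limma, adjusted p = 0.006). The Gclm call was lost without library 17 or library 18 (adjusted p up to 0.054). Prdx1 differed by 0.46 (adjusted p = 0.18).

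APRIL KO cells differed from WT cells under LPS in 0 of the 10 genes, where 0.0101% of all genes were called higher and 0.201% lower, and 1539 of the 9934 genes had an unadjusted p below 0.05 in limma, Gclc and Nfe2l2 among them. The log2 differences ran from -0.5 for Maoa and -0.4 for Gsta3 to 0.36 for Nfe2l2 (adjusted p = 0.22) and 0.37 for Prdx1 (adjusted p = 0.34).

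**Figure D4:**
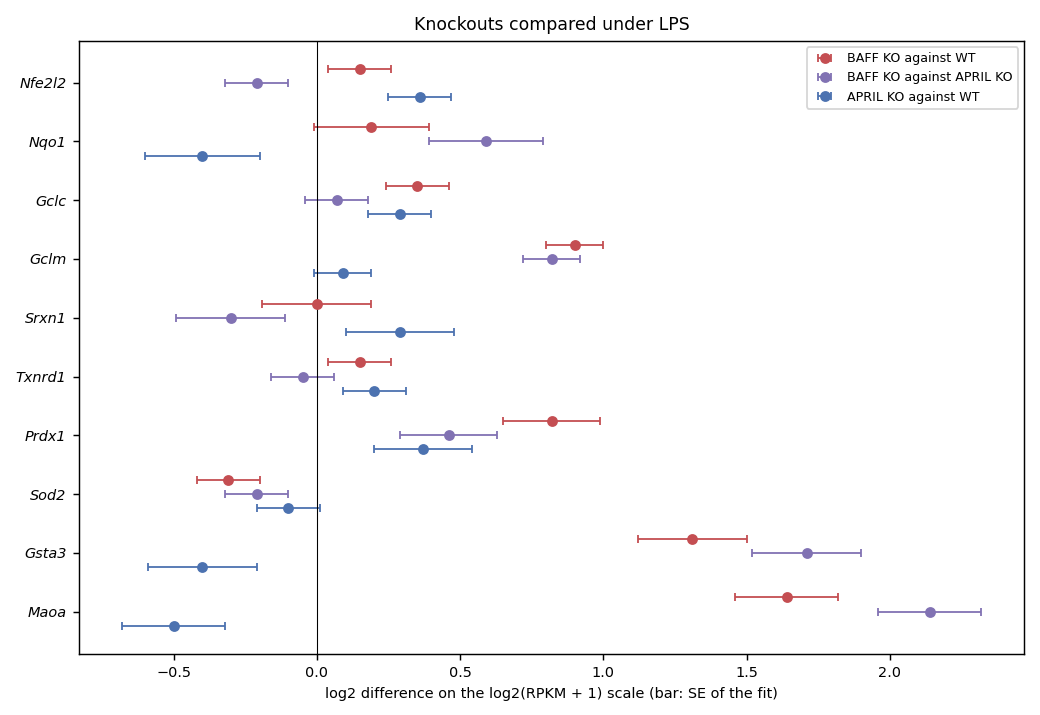
Log2 difference on the log2(RPKM + 1) scale (horizontal axis) between genotypes under LPS for the 10 genes (rows), with bars for the SE of the fit. Maoa, Gsta3 and Gclm lie at 0.82 to 2.14 in both comparisons of BAFF KO cells, and all 10 genes lie between -0.5 and 0.37 for APRIL KO against WT.

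Without stimulation there was 1 library per genotype and so no test, and a gene was counted where the columns of knockout and WT did not overlap and the fold was at least 1.5. In BAFF KO cells Maoa (3.3-fold), Gsta3 (3.32-fold), Prdx1 (1.69-fold) and Gclm (1.64-fold) were higher than in WT cells, where 4.79% of all tested genes were. The set was chosen with earlier results of these libraries known, so nothing is read from that share, and these folds are a description. The 95% exact binomial intervals of the read ratio, which cover counting error only, were 2.47 to 4.26 for Gsta3 and 1.52 to 1.79 for Gclm. For Prdx1 the interval was 1.49 to 1.56, below the 1.69-fold of the column means, since the WT columns stood at 428.8 and 627.1 RPKM, so whether it passes 1.5-fold depends on how the columns are combined. Nqo1 was lower, with 13 reads in BAFF KO and 53 reads in WT cells (interval of the ratio 0.117 to 0.434), where 12.3% of all genes were lower. In APRIL KO cells 0 of the 10 genes were higher (4.9% of all genes) and 1, Nqo1, was lower, with 16 reads in APRIL KO and 53 reads in WT cells (5.47% of all genes). These columns are repeat measures of 1 library, so their separation shows no spread between cultures.

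Markers of other cell types moved with these differences. In bulk RNA, more cells of a type and more RNA per cell cannot be told apart. Of 9 neutrophil and granule genes in the table, 7 were higher in BAFF KO than in WT cells under LPS and 6 of 9 than in APRIL KO cells. Their summed RPKM was 2705 and 2324 in BAFF KO, 1593 and 1628 in APRIL KO and 1344 and 1702 in WT cells with LPS. Without stimulation it was 5778 in BAFF KO, 2734 in APRIL KO and 3069 in WT cells. Ly6g was not analysed here, and the neutrophil elastase gene Elane was at 8.58 and 10.9 RPKM in BAFF KO against 4.11 and 3.84 RPKM in WT cells with LPS. With LPS all 9 fell in the averaged test, where 62.1% of all genes fell. After median ratio scaling 6 were lower, 1 was higher and 2 were not called, where 2943 of all 9768 genes were lower and 3077 higher. The part of these cells in the Gsta3, Maoa, Gclm and Prdx1 differences was not tested. Of the 8 macrophage markers, 2 were lower in BAFF KO than in WT cells and 3 than in APRIL KO cells under LPS, and none of the 8 was called higher. Skeletal muscle genes moved the other way, with 8 of 10 lower in BAFF KO than in WT cells under LPS and 0 of 10 called between BAFF KO and APRIL KO cells. Their summed RPKM was 38.8 and 51.4 in BAFF KO and 27 and 68.8 in APRIL KO cells with LPS, against 340 and 238 in WT cells with LPS. Their part in the differences from WT was not tested. Summed fibroblast genes varied from 8.03 to 434 RPKM between libraries and 0 of the 5 tested fibroblast genes were called between BAFF KO and WT cells. Of the adipocyte list only Fabp4, which macrophages also express, was in the table, at 324 to 606 RPKM in BAFF KO and 226 to 281 RPKM in the other libraries.

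The 9 libraries were also searched for the genes most like Gsta3 and Maoa, by Pearson's r on log2(RPKM + 1) over the 7054 genes that averaged 5 RPKM or more in some group. Gsta3 was most like Mgst1, a microsomal glutathione transferase (r = 0.986), Itm2b (0.977) and the neutrophil granule gene Ngp (0.977). Maoa was most like the glutathione transferase gene Gstm1 (0.977), the autophagy gene Atg3 (0.974) and Gstm3 (0.973). The 9 points share genotype and LPS, so these values describe the libraries and carry no p-value.

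A wider list of antioxidant and detoxification genes was set beside the 10. Of 60 genes 56 were in the table, 55 were tested, and Gsta4, Gpx7, Sod3 and Maob were not analysed here. With LPS, averaged over genotypes, 9 were higher and 37 lower, close to the 18.1% and 62.1% of all genes, with a median of -0.45 against -0.44 for all genes. After median ratio scaling 17 were higher and 19 lower, where 3077 of all 9768 genes tested were higher and 2943 lower. The largest rises were Ggct, a gamma-glutamylcyclotransferase that breaks down glutathione intermediates (log2 1.91), Slc7a11, the cystine importer that feeds glutathione synthesis (1.83), and Prdx5, a peroxiredoxin of mitochondria and peroxisomes (1.66; limma, adjusted p 8.5e-07 to 2.9e-06). Slc7a11 was at 9.7 ± 1.46 RPKM with LPS (SD, n = 6) and 2.01 ± 0.5 RPKM without (n = 3). The largest falls were Idh1, an NADPH-making dehydrogenase (-1.79), Txnip, which inhibits thioredoxin (-1.69), and Osgin1 (-1.61; adjusted p 1.4e-06 to 3.7e-05). Idh1 was at 17.9 ± 4.4 RPKM with LPS (SD, n = 6) and 63.7 ± 13.8 RPKM without (n = 3). These 6 genes were called in each of 15 alternatives.

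In WT the same rule named Ggct (2.19), Prdx5 (1.99) and Slc7a11 (1.83) as rises and Osgin1 (-1.96), Txnip (-1.85) and Idh1 (-1.63) as falls. In APRIL KO cells it named Ggct (2.1), Prdx5 (1.78), Slc7a11 (1.77), Idh1 (-2.03), Osgin1 (-1.82) and Txnip (-1.81). In BAFF KO cells it named Slc7a11 (1.9), Ggct (1.45) and the small MAF gene Mafk (1.21) as rises, and Idh1 (-1.7), the heme oxygenase gene Hmox1 (-1.57) and the glutathione peroxidase gene Gpx1 (-1.55) as falls. The rule ranks within a genotype, so genes it does not name can change too. Mafk was at 10.1 RPKM with LPS and 2.59 RPKM without in APRIL KO cells, and 7.81 and 3.31 RPKM in WT cells. Hmox1 was at 167.5 and 321.8 RPKM in APRIL KO and 172.2 and 304.9 RPKM in WT cells. Gpx1 was at 36.2 and 76.8 RPKM in APRIL KO and 39.8 and 80.6 RPKM in WT cells. Prdx5 was at 728.8 and 314.8 RPKM in BAFF KO cells. Keap1 rose as well (averaged log2 0.96; limma, adjusted p = 2.5e-05), at 12 ± 2.08 RPKM with LPS (SD, n = 6) and 5.6 ± 0.153 RPKM without (n = 3).

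Between genotypes under LPS, 10 of the 55 genes were higher and 1 was lower in BAFF KO than in WT cells, where 3.99% of all genes were higher and 4.35% lower. The list was chosen with earlier results of these data known, so nothing is read from this share or from that against APRIL KO cells. The part of neutrophils in these differences was not tested. The rises were led by catalase, Cat, at 130.4 ± 7.56 RPKM in BAFF KO and 57.2 ± 1.1 RPKM in WT cells (SD, n = 2 each; log2 1.17; limma, adjusted p = 0.00054). Gstm1 was at 262.5 ± 14.7 RPKM in BAFF KO and 141.5 ± 2.41 RPKM in WT cells (SD, n = 2 each; 0.89, adjusted p = 0.0015), and Mgst1 differed by 0.73 (adjusted p = 0.014). The lower gene was the small MAF gene Maff, at 2.2 ± 0.682 RPKM in BAFF KO and 5.39 ± 0.256 RPKM in WT cells (SD, n = 2 each; -1.01, adjusted p = 0.017). Cat and Gstm1 were called in each of 15 alternatives. With the lower-index columns alone the Mgst1 and Maff calls were lost. Mgst1 was lost without library 14, 15, 17 or 18 and Maff without 14, 15 or 17, and the count of higher genes was 2 to 6 when 1 of the 6 LPS libraries was left out, lowest without 14 or 17. Against APRIL KO cells 11 were higher and 0 lower in BAFF KO cells, where 2.48% and 3.06% of all genes were. The rises were led by the aldo-keto reductase gene Akr1b8 (1.33; limma, adjusted p = 0.0021), Mgst1 (1.05, adjusted p = 0.0045) and Gstm1 (1, adjusted p = 0.00089). That count was 3 without library 17 and 4 without 18, 20 or 21, and Mgst1 was lost without library 17. Between APRIL KO and WT cells 0 of the 55 were called (14 at an unadjusted p below 0.05 in limma), and 0 were called for a difference in LPS response (16 at an unadjusted p below 0.05 for BAFF KO and 1 for APRIL KO).

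**Figure D5:**
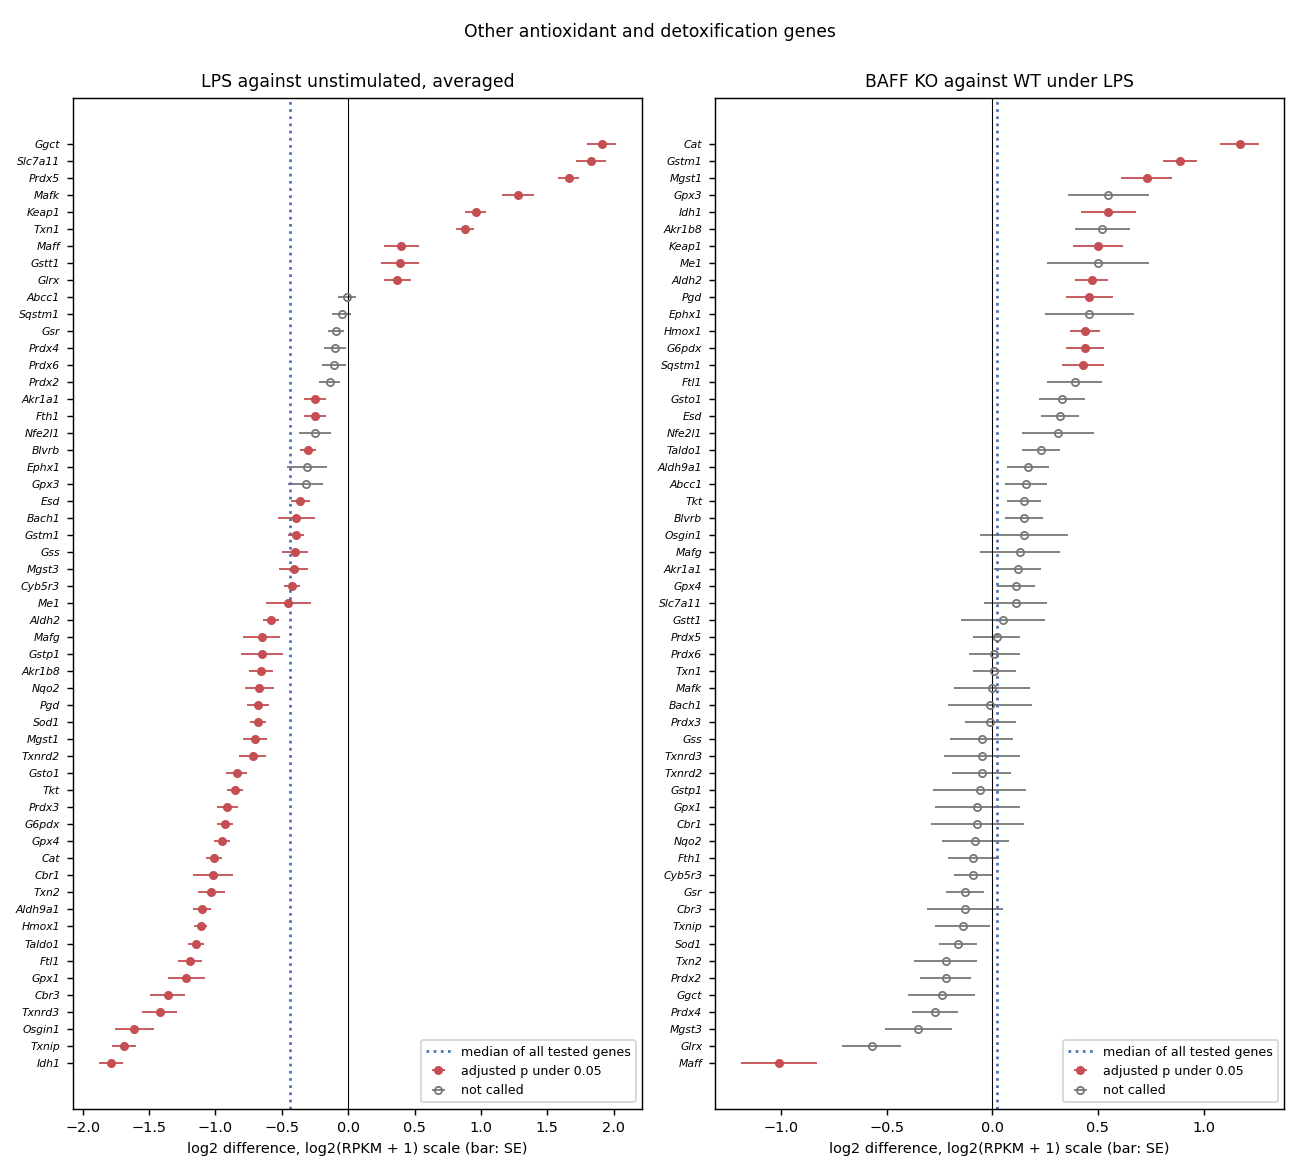
Log2 difference on the log2(RPKM + 1) scale (horizontal axes) of the 55 other antioxidant and detoxification genes (rows), with LPS against unstimulated cells averaged over genotypes at left and BAFF KO against WT cells under LPS at right. Filled points passed an adjusted p of 0.05, bars are the SE and the dotted line is the median of all genes, so the left panel shows 9 higher and 37 lower genes and the right one 10 higher and 1 lower.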

How the data were processed

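RNA was sequenced as single reads of 85 bp, per the labels' protocols, which name 2 kits, 1 of them directional, so whether strand is kept is unclear. The submitters' processing notes list STAR and mm10. How reads were counted, on which annotation and with which filter is not given in the sources used here. RPKM values of 11164 genes, as the authors deposited them, filled 18 columns, matched to 9 libraries by the names in the labels. Symbols came from GENCODE M21 for 11084 genes, and 80 had none. The steps between low RPKM values gave whole reads, within 0.01 reads, for 99.98% of genes, after 1 read that had been added to each count was taken off. Columns held 1649322 to 1942213 reads (lower index) or 3472473 to 4078559 reads (higher index) in listed genes. A count test was not run, since the deposited unit is RPKM.

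The mean of the 2 columns was taken as 1 library. The 9934 genes that averaged 1 RPKM or more in any of the 6 groups were fitted on log2(RPKM + 1) with limma 3.58.1 in R 4.3.3 (6 group means, 3 residual degrees of freedom, eBayes with a trend, 2-sided, Benjamini-Hochberg adjusted over all genes tested, threshold 0.05), for 9 comparisons. Fold changes on this scale understate changes of low genes, and an arm with 1 library is assumed to vary like the others. The code was tested on simulated data. Genes, lists and tests were chosen with earlier results of these data known. All 10 genes are named, and from the wider list the 3 largest called rises and falls per comparison, with Keap1 added after its values were seen.

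The 15 alternatives counted in the text were median ratio scaling, quantile normalization, no filter, either index column alone, the 18 columns as separate samples, a pseudocount of 0.1, a replicate block, each of the 6 LPS libraries left out and, chosen after seeing the data, library RPKM from summed reads. A fold of at least 1.5 beside the threshold was tried as well.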

Additional observations from a re-analysis of the deposited data

How the results depend on the processing

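Of the 10 genes, 8 were called with LPS averaged over genotypes, and 6 to 8 under the alternatives, among them the replicate block (8). In BAFF KO cells the count of 5 became 8 with the 18 columns as separate samples. Of all 9934 genes, 1849 were then higher and 5086 lower. In APRIL KO cells the count of 8 became 5 after quantile normalization and 4 with the lower-index columns alone, and it was smaller when a library was left out. Over all 9934 genes that comparison called 1426 higher and 4744 lower in the main fit, and 1870 and 2859 after quantile normalization. With the lower-index columns alone it called 1185 higher and 3268 lower of 10006 genes. For BAFF KO against WT under LPS the count of 4 was 2 to 4 when a library was left out (2 without library 14 or 17), and 4 with the replicate block. With the 18 columns as separate samples, APRIL KO against WT gave 2 in place of 0, BAFF KO against APRIL KO 6 in place of 3, and the BAFF KO difference in LPS response 5 in place of 0. That alternative counts 2 columns of a library as separate samples, and calls rose over all 9934 genes as well. It called 757 higher and 604 lower for APRIL KO against WT, and 910 and 914 for BAFF KO against APRIL KO. For the BAFF KO difference in LPS response it called 1454 higher and 739 lower, against 22 and 22 in the main fit. After median ratio scaling, which moves the median of all genes, the log2 difference with LPS turned to 0.46 for Prdx1 (averaged), 0.5 for Txnrd1 and 0.07 for Nfe2l2 (both in APRIL KO cells). Uncalled values turned as well, to 0.17 for Nfe2l2 in BAFF KO cells, 0.04 for Maoa in WT cells, and 0.37 in BAFF KO and 0.39 in WT cells for Prdx1. The cause of the other changes was not tested. Correlations of deviations of same-numbered libraries were -0.18, -0.102 and 0.12, so the numbers were not taken as pairs, and the replicate block gave 7 calls in BAFF KO, 6 in APRIL KO and 8 in WT cells with LPS. Of all 9934 genes, that block called 1504 higher and 4023 lower in BAFF KO, 1341 and 4347 in APRIL KO, and 1265 and 4225 in WT cells. The main fit called 1590 and 4353 in BAFF KO, 1426 and 4744 in APRIL KO, and 1356 and 4636 in WT cells. Over all genes, calls for BAFF KO against WT under LPS were 396 higher and 432 lower, but 87 and 141 without library 17, 76 and 139 without 18, 133 and 178 without 14, 133 and 200 without 15, 86 and 141 with the lower-index columns alone, and 259 and 305 with the replicate block. Low reads limit Nqo1, Srxn1 and Gsta3.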
